A study of Homo sapiens with 9 samples.

Results

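The genes described here are the G1 cyclins and E2F factors of HepG2 cells: CCND1 and CCND3, their kinase partner CDK6, CCNE1 and CCNE2, the inhibitor CDKN1B, and the transcription factors E2F1, E2F2, E2F7 and E2F8. They were chosen by name with earlier results of these data known, and all 10 were found among the 22587 genes of the deposited expression table. HepG2, a long-established human liver tumor cell line, was grown here in high-glucose DMEM with serum. RNA was sequenced from 3 libraries labelled as normal medium, named Gln added here, from 3 of cells deprived of Gln for 12 h and from 3 deprived for 24 h. The labels of the Gln added libraries name GlutaMAX (a dipeptide that cells split to obtain Gln), whereas the treatment protocol and the methods describe it as part of the deprivation medium. No genetic change is named for any group, and all cells are of 1 line. Nothing in the labels says that the replicates came from separate cultures, so the p-values measure the spread between these libraries, which may be technical.

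Cells decide in G1 whether to start a new round of DNA replication. D-type cyclins bind CDK4 or CDK6 and phosphorylate the retinoblastoma protein RB1, which releases E2F factors. The E2F factors then switch on cyclin E and the genes of DNA synthesis, and cyclin E with CDK2 drives entry into S phase. The inhibitor p27, encoded by CDKN1B, holds these kinases back. E2F1 and E2F2 are known as activators, and E2F7 and E2F8 as repressors that are themselves E2F targets and close the loop.

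Values are FPKM, fragments scaled to gene length and to the size of the library. They are compared here between genes and between libraries, with no further scaling between libraries in the main fit. Each library held between 29618744 and 36258366 fragments on genes. The values of the 10 genes rested on 116 to 22580 fragments per library, fewest for CCNE2 and most for CDK6. The coefficient of variation between the 3 replicates ran from 0.876% (CCND1 at 24 h) to 12.6% (E2F7 at 12 h). Differences were tested with limma on log2(FPKM + 0.1), and a gene is called where its Benjamini-Hochberg adjusted p over the 11880 genes tested was under 0.05. Most of the genes tested passed, 60.2% for 12 h against Gln added and 64.7% for 24 h, so a call alone sets no gene apart. Each of the 10 liver markers looked up (ALB, AFP, APOA1 and others) reached 1 FPKM or more, and their summed level was 10100 to 10200 FPKM with Gln added, 8740 to 9030 for 12 h and 8780 to 9310 for 24 h, lower in every deprived library. The fibroblast markers (5 of 6 measured) and endothelial markers (3 of 4 measured) stayed below 1 FPKM throughout, and the fibroblast sum went from between 0.113 and 0.181 FPKM with Gln added to between 0.603 and 0.786 by 24 h. The leukocyte list had 2 of 4 genes measured, CD68 and CD14, whose summed level went from between 37.4 and 37.7 FPKM with Gln added to between 29.6 and 32.7 at 12 h and between 22.2 and 26.9 by 24 h; the part of these in the results was not tested. In bulk RNA, fewer cells in one phase of the cycle and less of an mRNA in each cell cannot be told apart.

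Of the 10 genes, 8 were lower after 12 h of Gln deprivation with an adjusted p under 0.05 from limma, where 31.0% of all genes tested were lower. At 24 h, 9 were lower, against 31.7% of all genes. No member was called higher at either time, where 29.1% and 33.0% of all genes were. The members were chosen with earlier results of these data known, so these counts are a description and not an independent test. Related genes outside the list, such as E2F3 and CCND2, were called higher at both times. The median log2 fold change of the 10 genes was -0.62 at 12 h, while 24 h gave -0.57, beside -0.02 and 0.01 for all genes tested. CDK6 was called at neither time, and CDKN1B only at 24 h and by a narrow margin. For each of the 8 genes called at 12 h, and each of the 9 at 24 h, all deprived libraries lay below all libraries with Gln added, which held for 34.4% of all genes tested in the first comparison and 34.1% in the second. Without regard to direction, the groups were apart for 67.2% and 69.9% of all genes, and for 35.7% upward at 24 h. A two-sided exact permutation test of 3 libraries against 3 gives p = 0.1 for such a gene, the smallest value it can reach. Both times are compared with the same 3 libraries with Gln added. The labels give no hour for these libraries and name none with Gln added that was matched to 12 h or 24 h. Time in culture is thus not separated from deprivation, and its part was not tested. Words such as fell, rose or dropped compare groups of libraries.

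**Figure D1:**
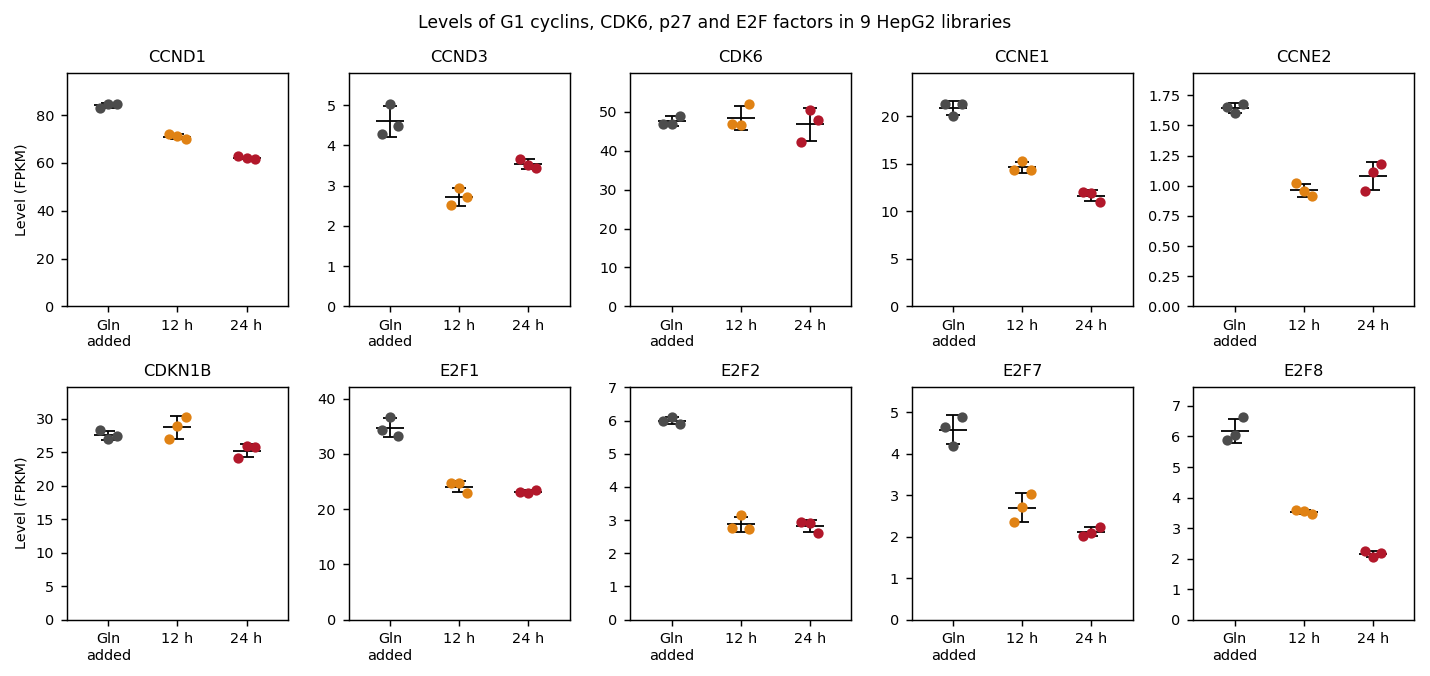
Level in FPKM of each gene in the 9 libraries, with axes that start at 0; points are libraries, and black bars are the mean and SD of 3. CDK6 overlaps between the groups (42.2 to 52.1 FPKM over all libraries), CCND3 dips to a mean of 2.72 FPKM at 12 h and stands at 3.53 at 24 h, and E2F8 steps down from 6.19 to 3.53 and 2.15 FPKM.

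With Gln added, CCND1 had the highest level of the 10 genes (mean 84.2 FPKM), followed by CDK6 (47.6), E2F1 (34.8), CDKN1B (27.6) and CCNE1 (20.9). The other genes were much lower, with E2F8 at 6.19 FPKM, E2F2 at 6.0, CCND3 at 4.60, E2F7 at 4.58 and CCNE2 at 1.64. In that order E2F8 and E2F2 overlapped between libraries, and so did CCND3 and E2F7, while all other neighbours were apart in every library. At both times of deprivation CDKN1B stood above E2F1, at 28.7 against 24.1 FPKM at 12 h and at 25.3 against 23.2 at 24 h, the reverse of their order with Gln added. E2F8 moved from above E2F2 to below it by 24 h, at 2.15 against 2.82 FPKM with no overlap, and then overlapped with E2F7 at 2.12.

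CCND1, the main D-type cyclin of these cells, lies on chromosome 11 of GRCh38 from 69641156 to 69654474 (plus strand, GENCODE v44). It was at 83.0, 84.8 and 84.7 FPKM with Gln added, at 72.0, 71.2 and 69.9 after 12 h and at 62.7, 62.0 and 61.6 after 24 h. The 3 groups did not overlap and each step was downward. The fall was small but well beyond the replicate spread, to 84.4% of the mean with Gln added at 12 h, while 24 h gave 73.8%. On the log2 scale it changed by -0.24 at 12 h (adjusted p = 4.42e-05 from limma, SE 0.0297) and -0.44 by 24 h (adjusted p = 3.81e-07 from limma). The step from 12 h to 24 h, of -0.19, was called as well (adjusted p = 0.00134 from limma). Exons of LTO1 on the other strand overlap 10.4% of the exonic bases of CCND1, and no source says whether counting used strand.

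CCND3, a second D-type cyclin, is on chromosome 6 from 41934934 to 42050357 (minus strand). Its level was 4.29, 5.04 and 4.48 FPKM with Gln added, 2.51, 2.95 and 2.71 at 12 h and 3.67, 3.51 and 3.43 by 24 h. It was lowest at 12 h and part of the way back at 24 h, again with no overlap between any of the groups. Its fold change on the log2 scale was -0.74 at 12 h (adjusted p = 1.85e-05 from limma, SE 0.0794) and -0.37 by 24 h (adjusted p = 0.00191 from limma). From 12 h to 24 h CCND3 rose by 0.37 on the log2 scale (adjusted p = 0.00931 from limma). It was the only one of the 10 genes called higher at 24 h than at 12 h, where 9.57% of all genes tested were. CCND1 supplied 94.3% ± 0.345 (SD, n = 3) of the summed FPKM of CCND1, CCND2 and CCND3 with Gln added, 95.3% ± 0.403 at 12 h, while 24 h gave 93.3% ± 0.259. The sum of these cyclins therefore followed CCND1, from 89.2 ± 1.32 FPKM to 74.6 ± 0.980 and 66.6 ± 0.757 (SD, n = 3 each).

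CDK6, a catalytic partner of the D-type cyclins, is on chromosome 7 from 92604921 to 92836573 (minus strand). It was at 46.8, 46.9 and 49.0 FPKM with Gln added, at 46.8, 46.6 and 52.1 at 12 h and at 42.2, 50.5 and 47.8 by 24 h. The groups overlapped throughout, and the deprived libraries spread more than those with Gln added. Against Gln added, the log2 fold change was 0.03 at 12 h (95% interval -0.12 to 0.17, adjusted p = 0.745 from limma) and -0.03 by 24 h (95% interval -0.17 to 0.12, adjusted p = 0.738 from limma). These intervals leave room for changes of the size seen in CDKN1B but not for those of CCNE1, CCNE2 or the E2F members. Between the times CDK6 differed by -0.05 (95% interval -0.20 to 0.09, adjusted p = 0.615 from limma). The direction of CDK6 turned with single libraries and with scaling. At 12 h the log2 value was -0.03 without replicate 3 of the 12 h group. At 24 h it was 0.05 without replicate 1 of the 24 h group and 0.02 with FPKM rescaled to 1 common total. Between the times it was 0.02 without that same replicate 1.

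CCNE1, the more abundant E-type cyclin and the partner of CDK2 at the start of S phase, is on chromosome 19 from 29811991 to 29824312 (plus strand). It was at 21.3, 20 and 21.3 FPKM with Gln added, at 14.3, 15.3 and 14.3 at 12 h and at 12.0, 11.9 and 11 by 24 h. The level was lower at 12 h and lower again at 24 h, and no library of one group reached into another. At 24 h it was 55.7% of the mean with Gln added. On the log2 scale it changed by -0.51 at 12 h (adjusted p = 1.01e-05 from limma, SE 0.0505) and -0.84 by 24 h (adjusted p = 1.53e-07 from limma), and -0.33 from 12 h to 24 h (adjusted p = 0.00128 from limma).

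CCNE2, the second E-type cyclin, lies on chromosome 8 from 94879770 to 94896678 (minus strand). It was the least abundant member, at 1.65, 1.60 and 1.68 FPKM with Gln added, 1.02, 0.952 and 0.915 at 12 h and 0.957, 1.11 and 1.18 by 24 h. All deprived libraries were below those with Gln added, while the groups at 12 h and 24 h overlapped. Few fragments stood behind these values, from 213 to 228 in a library with Gln added, from 116 to 132 for 12 h and from 131 to 157 for 24 h. Its fold change on the log2 scale was -0.71 at 12 h (adjusted p = 0.000171 from limma, SE 0.104) and -0.56 by 24 h (adjusted p = 0.000709 from limma). The difference between the times was 0.15 with a 95% interval of -0.08 to 0.38 (adjusted p = 0.354 from limma). With a pseudocount of 1 in place of 0.1, which shrinks the changes of low genes, the values were -0.43 and -0.34, both still called. Exons of INTS8 and of another gene on the other strand overlap 37.1% of the exonic bases of CCNE2, so part of its fragments may belong to them if strand was not used. CCNE1 supplied between 90.3% and 94.1% of the summed FPKM of the E-type cyclins in every library, and this sum went from 22.5 ± 0.818 FPKM to 15.6 ± 0.566 at 12 h, while 24 h gave 12.7 ± 0.484 (SD, n = 3 each).

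CDKN1B encodes p27, an inhibitor of cyclin-CDK complexes that is controlled to a large part through its degradation. It is on chromosome 12 from 12685498 to 12722369 (plus strand). The level was 28.3, 27 and 27.4 FPKM with Gln added, 27, 28.9 and 30.3 at 12 h and 24.1, 25.9 and 25.8 by 24 h. The 12 h libraries overlapped with those with Gln added and reached higher, and the 24 h libraries lay below all others. At 12 h the log2 fold change was 0.06 (95% interval -0.05 to 0.17, adjusted p = 0.325 from limma). At 24 h it was -0.13 (95% interval -0.23 to -0.02, adjusted p = 0.0415 from limma), a level of 91.6% of the mean with Gln added. This last call held in 10 of 19 alternatives, with adjusted p between 0.0209 and 0.217 over them. It was lost with FPKM rescaled to 1 common total (-0.08), without a filter on low values (-0.13) and without a variance trend (-0.13). It was also lost without replicate 1 (-0.11), 2 (-0.14) or 3 (-0.13) with Gln added, without replicate 2 at 12 h (-0.13) and without replicate 1 (-0.09) or 3 (-0.14) at 24 h. From 12 h to 24 h CDKN1B fell by 0.18 on the log2 scale (adjusted p = 0.0235 from limma), a call lost without replicate 2 (-0.18) or 3 (-0.15) at 12 h, without replicate 1 at 24 h (-0.15) and with only the groups compared in the fit (-0.18).

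E2F1 and E2F2 are activator E2F factors whose own genes are known E2F targets. The sequences before their start sites are shown with that of E2F7, since the windows of these genes were the ones among the members to hold E2F-type letters, and with that of CCNE1 as a gene that fell at both times and held none. They are taken from RefSeq on GRCh38.p14, which gave windows of 250 bases before to 50 after the start for 7 of the 10 members, in 10 windows because CCND3 has 3 starts and CDK6 has 2. CCND1, CCNE2 and E2F8 had no entry. Each line gives the 200 bases before the start, 5′ to 3′ on the strand of the gene, and capitals mark matches on either strand to the motifs TTCCCGC, also TTGGCGC, also TTCGCGC and also TTGCCGC, letters of the kind that E2F factors bind.
E2F1 (chr20:33686386-33686585, minus strand): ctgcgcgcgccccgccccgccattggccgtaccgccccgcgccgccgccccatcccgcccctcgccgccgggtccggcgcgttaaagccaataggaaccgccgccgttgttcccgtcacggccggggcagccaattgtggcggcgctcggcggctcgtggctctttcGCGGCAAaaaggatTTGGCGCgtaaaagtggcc
E2F2 (chr1:23531234-23531433, minus strand): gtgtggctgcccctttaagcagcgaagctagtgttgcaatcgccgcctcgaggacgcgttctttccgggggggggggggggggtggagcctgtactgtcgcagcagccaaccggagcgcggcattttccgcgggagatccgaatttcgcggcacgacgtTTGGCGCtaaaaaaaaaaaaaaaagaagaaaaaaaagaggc
E2F7 (chr12:77065570-77065769, minus strand): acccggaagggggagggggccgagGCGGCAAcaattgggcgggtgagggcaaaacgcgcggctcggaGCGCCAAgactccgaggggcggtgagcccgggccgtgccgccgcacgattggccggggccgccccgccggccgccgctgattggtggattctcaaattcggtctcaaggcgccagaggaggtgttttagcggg
CCNE1 (chr19:29811791-29811990, plus strand): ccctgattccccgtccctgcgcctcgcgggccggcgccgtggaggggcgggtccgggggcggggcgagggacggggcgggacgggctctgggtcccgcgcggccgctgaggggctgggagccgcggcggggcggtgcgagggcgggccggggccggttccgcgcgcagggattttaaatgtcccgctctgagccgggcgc

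E2F1 held TTGGCGC with its first base at -19 from the start and the reverse complement of TTGCCGC at -33. E2F2 held TTGGCGC at -41, and E2F7 held the reverse complement of TTGGCGC at -133 and of TTGCCGC at -176. None of the matches overlapped another. The windows of CCNE1, of CDK6 and CDKN1B, and all 3 of CCND3, which also fell at both times, held no match. In all, 3 of the 10 windows of the members held at least 1 of the 4 motifs, and 13% of the 35116 RefSeq windows of the same length did. Single motifs were found in 6.55% (TTCCCGC), 3.04% (TTGGCGC), 2.24% (TTCGCGC) and 2.39% (TTGCCGC) of all windows. TTTGAA, the letters of the cell cycle homology region (CHR) element found at many late cell cycle genes, was in none of the 10 and in 15.2% of all windows. These matches describe letters only. The search took exact letters, so near matches and sites outside the windows were not counted, for CCNE1 as for the others.

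E2F1, on chromosome 20 from 33675477 to 33686385 (minus strand), was at 34.3, 36.7 and 33.3 FPKM with Gln added, 24.7, 24.7 and 22.9 at 12 h and 23.1, 23.0 and 23.5 by 24 h. It was lower at 12 h and level from 12 h to 24 h, with the deprived groups overlapping each other but not Gln added. Against Gln added, the log2 fold change was -0.53 at 12 h (adjusted p = 3.85e-06 from limma, SE 0.0462) and -0.58 by 24 h (adjusted p = 1.31e-06 from limma). Between the times it differed by -0.05 (95% interval -0.16 to 0.05, adjusted p = 0.462 from limma).

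E2F2, on chromosome 1 from 23506438 to 23531233 (minus strand), was at 5.98, 6.11 and 5.91 FPKM with Gln added, 2.75, 3.14 and 2.73 at 12 h and 2.93, 2.91 and 2.6 by 24 h. It had the same shape as E2F1 with a deeper drop, to 47.9% and 46.9% of the mean with Gln added. On the log2 scale it changed by -1.04 at 12 h (adjusted p = 7.08e-07 from limma, SE 0.0725), the lowest of the 10 genes at that time, and -1.07 at 24 h (adjusted p = 3.90e-07 from limma). Among all genes tested, 1.78% had a lower value at 12 h. The difference from 12 h to 24 h was -0.03 (95% interval -0.19 to 0.13, adjusted p = 0.828 from limma), and its sign turned without replicate 2 at 12 h (0.04) or replicate 3 at 24 h (0.03).

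E2F7 and E2F8 are repressors of E2F target genes that act mainly in S and G2 phase. E2F7 is on chromosome 12 from 77021248 to 77065569 (minus strand) and was at 4.64, 4.2 and 4.89 FPKM with Gln added, 2.35, 2.72 and 3.04 at 12 h and 2.02, 2.10 and 2.24 by 24 h. Its groups did not overlap, though the 12 h libraries were the most spread of any member. Its fold change on the log2 scale was -0.74 at 12 h (adjusted p = 6.65e-05 from limma, SE 0.0959) and -1.08 by 24 h (adjusted p = 3.10e-06 from limma). The further step of -0.33 from 12 h to 24 h had an adjusted p of 0.0345 from limma and was called in 11 of 19 alternatives, with adjusted p up to 0.0962. It was lost without replicate 1 with Gln added (-0.33), without replicate 2 (-0.32) or 3 (-0.25) at 12 h and without replicate 1 (-0.30), 2 (-0.33) or 3 (-0.37) at 24 h. It was also lost with only the groups compared in the fit (-0.33) and without a filter on low values (-0.33).

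E2F8 is on chromosome 11 from 19224063 to 19241620 (minus strand). It was at 5.90, 6.04 and 6.64 FPKM with Gln added, 3.58, 3.55 and 3.45 at 12 h and 2.24, 2.05 and 2.17 by 24 h. The 3 groups were far apart, and the deprived libraries were tight. E2F8 had the deepest fall of the 10 genes at 24 h, to 34.8% of the mean with Gln added, and only 85 of the 11880 genes tested had a lower fold change. Against Gln added, the log2 fold change was -0.79 at 12 h (adjusted p = 2.13e-06 from limma, SE 0.0641) and -1.48 by 24 h (adjusted p = 1.32e-08 from limma). From 12 h to 24 h it fell by 0.69 on the log2 scale (adjusted p = 5.86e-05 from limma), and 0.631% of all genes tested had a lower value in that comparison. Over all alternatives E2F8 was called in each of the 3 comparisons, with log2 fold changes between -1.52 and -1.19 by 24 h.

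**Figure D2:**
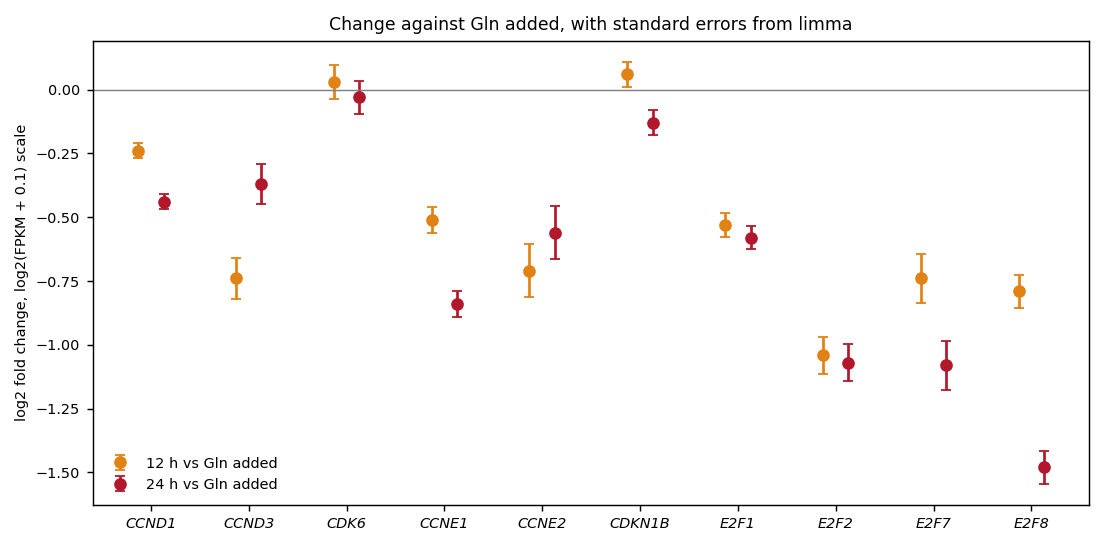
log2 fold change of each gene against Gln added on the log2(FPKM + 0.1) scale, at 12 h and 24 h; bars are the standard errors from limma. CDK6 sits at 0.03 and -0.03 and CDKN1B at 0.06 and -0.13, while the other genes are below 0 at both times, down to -1.48 for E2F8 at 24 h.

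The difference of 24 h from 12 h leaves out the levels with Gln added, although those libraries enter the estimate of the spread. Of the 10 genes, 6 were called, where 20.1% of all genes tested were. They were 5 lower and 1 higher at 24 h, against 10.5% and 9.57% of all genes. The same 6 had groups that did not overlap, against 16.9% of all genes lower and 17.5% higher in that way. CCND1, CCNE1, E2F7, E2F8 and CDKN1B were lower and CCND3 was higher, with the limits given above for E2F7 and CDKN1B. E2F1, E2F2, CCNE2 and CDK6 were not called. Over all genes the direction of this comparison depends on the scaling: of the called genes, the share higher at 24 h was 47.7% with the FPKM taken as they are, 33.4% once they were scaled by median ratios and 54.3% once each library was brought to 1 total. The directions of the 6 called members were the same in each of these scalings.

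Ratios of related genes within a library are little touched by scaling between libraries. They were compared for 5 pairs in 3 comparisons, 15 tests in all. With 3 libraries against 3 no exact permutation test can go below p = 0.1, and no ratio passed after adjustment (Benjamini-Hochberg adjusted p at least 0.15). CCND1 over CCND3 was at 4.17 ± 0.106 on the log2 scale with Gln added, 4.66 ± 0.122 at 12 h, while 24 h gave 4.10 ± 0.0363 (SD, n = 3 each). The 12 h libraries were above all others (exact permutation p = 0.1 against each group), and the 24 h libraries overlapped with Gln added. With a pseudocount of 1 the gain at 12 h was 0.35 in place of 0.49.

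E2F2 over E2F1 went from -2.51 ± 0.0494 to -3.03 ± 0.0939 at 12 h, while 24 h gave -3.00 ± 0.106 (log2 ratio, SD, n = 3 each). Both deprived groups were below every library with Gln added (exact permutation p = 0.1 each). This restates the deeper drop of E2F2 from the same values and is no separate support for it. E2F8 over E2F7 was at 0.43 ± 0.0855 with Gln added, 0.38 ± 0.202 at 12 h, while 24 h gave 0.02 ± 0.104. The first 2 groups overlapped, and the 24 h libraries were below both (exact permutation p = 0.1 each). CCNE2 over CCNE1 was at -3.59 ± 0.0249, -3.79 ± 0.0991 and -3.31 ± 0.202 in the same order, apart between all groups (exact permutation p = 0.1 each), but its 12 h difference of -0.20 turned to 0.05 with a pseudocount of 1. CDK6 over CDK4 was at -0.77 ± 0.0468, -0.62 ± 0.156 and -0.52 ± 0.225. It was higher at 12 h than with Gln added by 0.15 with no overlap (exact permutation p = 0.1), while the 24 h libraries overlapped with both other groups.

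**Figure D3:**
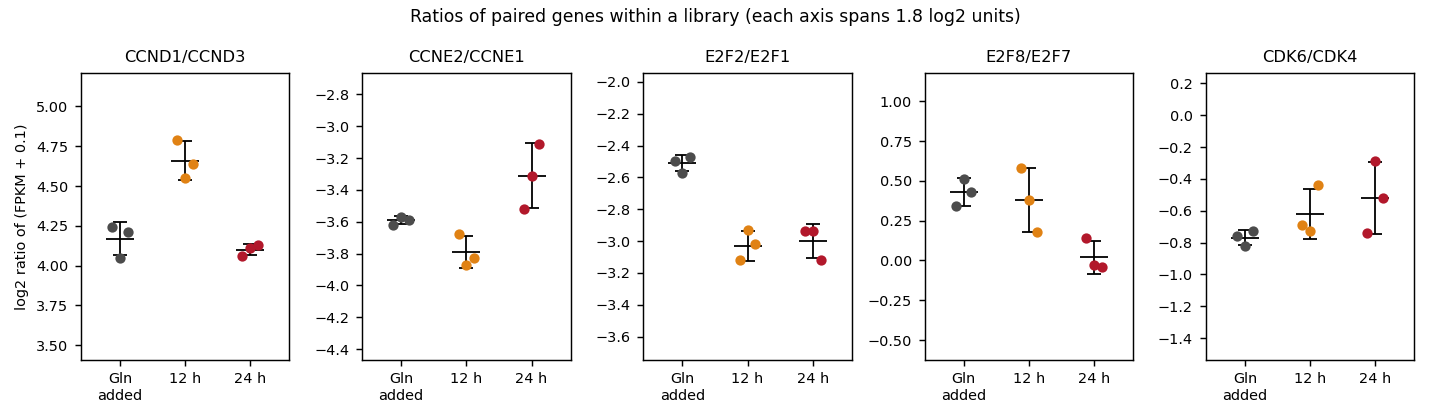
log2 ratio of (FPKM + 0.1) of 5 gene pairs within each library; points are libraries, black bars are the mean and SD of 3, and each axis spans the same range of log2 units. CCND1/CCND3 peaks at 12 h (4.66), E2F2/E2F1 is lower at both deprived times (-3.03 and -3.00 against -2.51), and E2F8/E2F7 drops at 24 h (0.02 against 0.43).

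Other regulators of the G1 to S step were taken as a list of 26 genes, of which 25 passed the filter on low values. CDKN1C, which encodes p57, did not pass and had 0 to 2 fragments per library. At 12 h, 10 of the 25 were called lower and 7 higher, and at 24 h 13 lower and 7 higher. Shares of all genes tested in these directions were 31.0% and 29.1% at 12 h, while 24 h gave 31.7% and 33.0%. The median of the list was -0.13 at 12 h, while 24 h gave -0.16 on the log2 scale, beside -0.02 and 0.01 for all genes tested.

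Its largest rise was that of CDKN2B, which encodes p15, an inhibitor of CDK4 and CDK6. CDKN2B was at 0.232, 0.144 and 0.176 FPKM with Gln added, 1.01, 0.692 and 0.697 at 12 h and 2.10, 1.86 and 1.89 by 24 h. The groups did not overlap, and the low levels rested in the 3 libraries with Gln added on 20 to 33 fragments each, on 100 to 119 at 12 h and 247 to 299 at 24 h. On the log2 scale it changed by 1.66 at 12 h (adjusted p = 1.63e-05 from limma) and 2.86 by 24 h (adjusted p = 1.81e-07 from limma). Its size depends on the pseudocount, with 0.60 and 1.32 at a pseudocount of 1. CCND2, the third D-type cyclin, rose from 0.455 ± 0.0386 FPKM to 0.773 ± 0.0742 and 0.958 ± 0.111 (SD, n = 3 each), by 0.65 and 0.93 on the log2 scale (adjusted p = 0.00225 and 0.000177 from limma), or by 0.28 and 0.43 with a pseudocount of 1. Exons of another gene on its strand cover 12.5% of the exonic bases of CCND2.

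CDKN2C, which encodes the related inhibitor p18, went the other way. It was at 9.67, 9.07 and 9.47 FPKM with Gln added, 3.73, 3.89 and 4.64 at 12 h and 2.64, 1.92 and 2.89 by 24 h. All groups were apart, and the log2 fold change was -1.19 at 12 h, while 24 h gave -1.90 (adjusted p = 2.10e-05 and 4.26e-07 from limma). An opposite-strand gene overlaps 20.4% of its exonic bases. SKP2, the ubiquitin ligase subunit that recognises p27, fell from 17.4 ± 0.458 FPKM to 7.23 ± 0.695 and 6.06 ± 0.246 (SD, n = 3 each), with log2 fold changes of -1.26 and -1.5 (adjusted p = 9.02e-08 and 1.48e-08 from limma). These were deeper falls than those of the members at 12 h. The mRNA level of CDKN1B overlapped with Gln added at that time, and p27 protein was not measured in these libraries.

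CDKN1A, which encodes the inhibitor p21, was at 33.9, 36.1 and 34.4 FPKM with Gln added, 33.6, 33.3 and 32.2 at 12 h and 45.3, 42.0 and 42.9 by 24 h. It was not called at 12 h (-0.07, adjusted p = 0.149 from limma) and rose by 24 h (0.32, adjusted p = 5.40e-05 from limma). CDK4, the other partner of the D-type cyclins, had 81.3 ± 1.89 FPKM with Gln added, 74.6 ± 3.34 at 12 h, while 24 h gave 67.0 ± 4.58 (SD, n = 3 each). Its fold change on the log2 scale was -0.13 at 12 h (adjusted p = 0.0592 from limma) and -0.28 by 24 h (adjusted p = 0.000751 from limma). The 12 h value was called with only the groups compared in the fit, with voom on recovered fragments, and without replicate 1 or 2 of the 24 h group, at -0.13 each time. Exons of TSPAN31 on the other strand overlap 44.2% of the exonic bases of CDK4. RB1, whose protein the D-type cyclin kinases phosphorylate, had 16 ± 0.374 FPKM with Gln added, 13.1 ± 0.892 at 12 h and 14.5 ± 1.21 by 24 h (SD, n = 3 each), with log2 fold changes of -0.29 at 12 h (adjusted p = 0.00335 from limma) and -0.14 by 24 h (adjusted p = 0.0804 from limma). The 24 h value was called without replicate 2 of the 24 h group (-0.20), after median-ratio scaling (-0.16) and with voom (-0.14).

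The E2F family did not move as a block. E2F3, the third activator, was at 4.81, 4.65 and 4.73 FPKM with Gln added, 5.73, 5.99 and 6.09 at 12 h and 6.25, 5.86 and 5.88 by 24 h. It rose against Gln added, by 0.32 (12 h) and 0.33 (24 h) on the log2 scale (adjusted p = 0.000272 and 0.000164 from limma), with every deprived library above every library with Gln added. E2F1 supplied 76.4% ± 0.838 of the summed FPKM of E2F1, E2F2 and E2F3 with Gln added, 73.2% ± 1.13 at 12 h, while 24 h gave 72.5% ± 0.924 (SD, n = 3 each), and the sum fell from 45.5 ± 1.83 FPKM to 32.9 ± 1.06 and 32.0 ± 0.266. The remaining factors of the family were added after their values were seen. E2F4, which mainly represses with the pocket proteins, was called higher at 12 h (0.22, adjusted p = 0.00137 from limma) and missed the threshold at 24 h (0.10, adjusted p = 0.0546 from limma). That 24 h value passed without replicate 2 with Gln added (0.13), without replicate 2 or 3 at 12 h (0.10 each), with FPKM rescaled to 1 common total (0.15), with a replicate block (0.10) and with only the groups compared (0.10). E2F5 was called at 12 h (0.38, adjusted p = 0.000556 from limma) and not at 24 h (0.05, adjusted p = 0.519 from limma), and E2F6 at both times (0.14 and 0.23, adjusted p = 0.0342 and 0.00247 from limma). Exons of RBIS and of another gene on the other strand overlap 18.8% of the exonic bases of E2F5. The 12 h call of E2F6 was lost without replicate 2 (0.15) or 3 (0.11) with Gln added, without replicate 2 or 3 at 12 h (0.12 each) and without a filter on low values (0.14). At 12 h, then, E2F1, E2F2, E2F7 and E2F8 were called lower and E2F3, E2F4, E2F5 and E2F6 higher, and these directions were the same in each scaling tried.

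**Figure D4:**
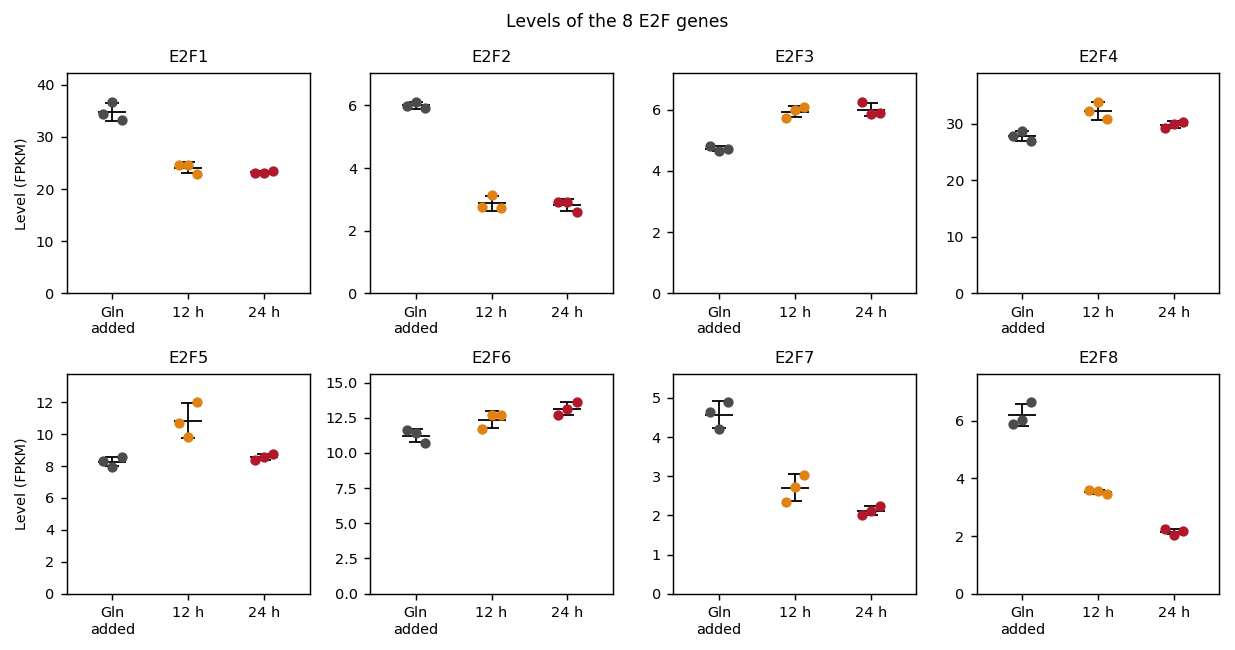
Level in FPKM of the 8 E2F genes in the 9 libraries, with axes that start at 0; points are libraries, and black bars are the mean and SD of 3. E2F1, E2F2, E2F7 and E2F8 are lower in all deprived libraries, and E2F3 is higher (means 4.73, 5.94 and 6.0 FPKM).

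A list of 28 textbook E2F target genes, mostly of DNA replication, was looked at beside the factors. It too was chosen with earlier results of these data known. All 28 passed the filter on low values, 27 were called lower at 12 h and every one at 24 h (28), against 31.0% and 31.7% of all genes tested. Their median log2 fold change was -0.79 at 12 h, while 24 h gave -1.04. RBBP8, a factor of DNA end resection, was the gene not called at 12 h (0.05, adjusted p = 0.414 from limma) and had the smallest fall at 24 h (-0.13, adjusted p = 0.0361 from limma). Its 24 h call was lost without replicate 1 (-0.12), 2 (-0.15) or 3 (-0.14) with Gln added, without replicate 1 (-0.14) or 3 (-0.11) at 24 h, with FPKM rescaled to 1 common total (-0.09), and without the filter or the variance trend (-0.13 each). At 24 h the largest changes were those of GINS2 and MCM5 of the replicative helicase, CDC6, which loads it, and RRM1, the large subunit of ribonucleotide reductase. CDC6 had 28.8 ± 0.613 FPKM with Gln added, 9.63 ± 0.199 at 12 h and 9.58 ± 0.186 by 24 h (SD, n = 3 each), log2 fold changes of -1.57 (12 h) and -1.58 (24 h). Its pattern was that of E2F1 and E2F2, lower at 12 h and level from 12 h to 24 h. GINS2 had log2 fold changes of -1.37 and -1.65, RRM1 of -1.20 and -1.53 and MCM5 of -1.26 and -1.48 at the 2 times, with adjusted p from limma of 1.13e-07 or less. From 12 h to 24 h, 20 of the 28 were called lower and none higher, against 10.5% and 9.57% of all genes tested. With only the groups compared in the fit 13 were called lower, and the calls over all genes went from 2386 to 1769.

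**Figure D5:**
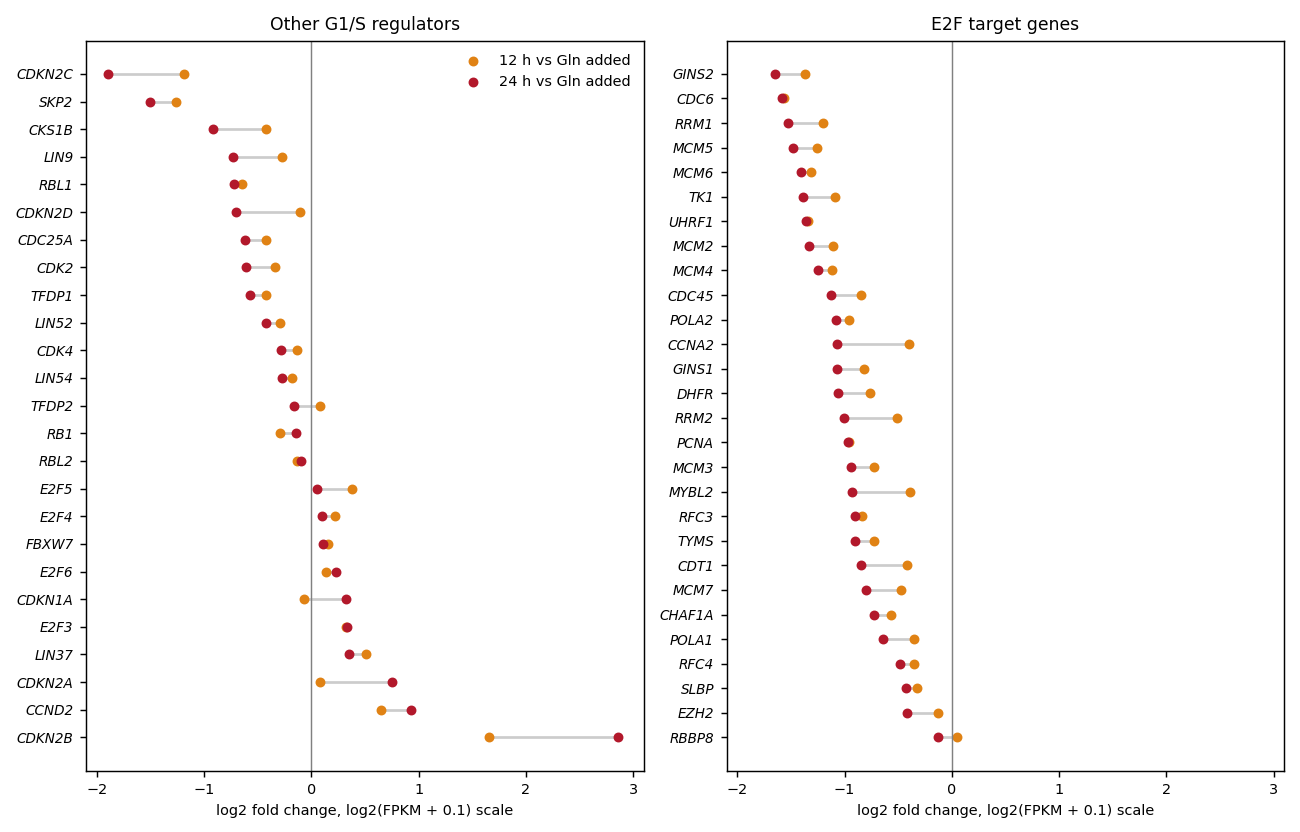
log2 fold change against Gln added on the log2(FPKM + 0.1) scale at 12 h and 24 h for the 25 other G1/S regulators tested and the 28 E2F target genes, each ordered by its value at 24 h; grey lines join the 2 times of a gene. The regulators lie on both sides of 0, from -1.90 (CDKN2C) to 2.86 (CDKN2B) at 24 h, and the target genes from -1.65 (GINS2) to -0.13 (RBBP8).

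The genes whose pattern over the 9 libraries was most like that of a member were looked up among the 10867 others with a mean of at least 1 FPKM that were tested, by Pearson correlation of log2(FPKM + 0.1). The libraries fall into 3 groups, so a high value mostly says that the group means lie alike, and it is given as a description. For CCND1 they were TUBA1C, a tubulin (r = 0.997), ATP6V0E2, a subunit of the proton pump (r = 0.997), and E2F8 (r = 0.997), another member. CCND1 and E2F8 were thus both lower at 12 h and lower again at 24 h, and differed in depth. For E2F1 they were USP5 (r = 0.996), MRPL23 (r = 0.996) and HSPG2 (r = 0.995). CCNE2 was closest to SH3BGRL3 (r = 0.995), CITED2 (r = 0.988) and CHST15 (r = 0.986), each lowest at 12 h. CDKN1B was closest to USP1 (r = 0.972), which went from a mean of 30.1 FPKM to 32.6 at 12 h and down to 26.9 at 24 h, then to PPP1R8 (r = 0.947) and NET1 (r = 0.946).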

How the data were processed

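Gene expression was measured by RNA-seq in 9 HepG2 libraries. According to the methods, reads were aligned to GRCh38 with STAR; the submitters' processing notes also name HTSeq and R 3.2.0, and the annotation is not given in the sources used here. The authors deposited FPKM per gene, without other scaling between libraries stated. The labels and the methods name different library kits, of which the methods call theirs strand-specific. Fragment numbers were solved from the steps of the FPKM, and whole numbers (within 0.01) came out for 100% of the 22587 genes; they give the depth. FPKM are not counts, so limma 3.58.1 (R 4.3.3, lmFit and eBayes with a trend) was run on log2(FPKM + 0.1) for genes averaging 0.5 FPKM or more, all 3 groups in 1 fit. The same fit was run on simulated counts with 1 fixed spread and far fewer changed genes than were called here. That run checks the code and not the calls. Fold changes on this scale understate changes of low genes. All replicate pairs differed by more than sampling noise. Named genes are the members, CDKN1A, CDK4, RB1, E2F3 and, from each list, the 4 called genes with the largest change and no overlap between groups; genes most alike are the 3 with the highest correlation for CCND1, CDKN1B, CCNE2 and E2F1. E2F4, E2F5, E2F6 and RBBP8 were added after their values were seen. The members and lists were chosen with earlier results of these data known. The planned comparison of protein sequences was not run. Alternatives were other pseudocounts (1 and 0.01), filters, scalings, fits, voom on the fragments and each library left out. Python 3.11.15 and matplotlib 3.10.9 were used for the plots.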

Additional observations from a re-analysis of the deposited data

Results flagged for a closer look

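In 6 of the 10 genes the change against Gln added differed between 12 h and 24 h by the direct test of the 24 h against the 12 h libraries (limma, adjusted p under 0.05, 3 libraries each), where 20.1% of all genes tested were called. E2F8 differed by -0.69 on the log2 scale (adjusted p = 5.86e-05 from limma), CCNE1 by -0.33 (adjusted p = 0.00128), CCND1 by -0.19 (adjusted p = 0.00134), E2F7 by -0.33 (adjusted p = 0.0345) and CDKN1B by -0.18 (adjusted p = 0.0235), all lower at 24 h in every library. The calls of E2F7 and CDKN1B held in 11 and 15 of 19 alternatives. CCND3 differed by 0.37 (adjusted p = 0.00931), higher at 24 h in every library. With 3 libraries per group no single library was tested for standing apart.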

How the results depend on the processing

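Of 108 results, 1881 values were recomputed under an alternative, and 1781 were judged the same. A fold change was the same where it kept its direction and its side of the threshold. A ratio was the same where it moved by less than the replicate SD. A count was the same where it stayed within a set factor of its main value. The 8 genes other than CDK6 and CDKN1B were called lower than with Gln added at both times in each of 19 alternatives. Among counts, a filter at a mean of 1 FPKM, which removes CCND2, CDKN2A and CDKN2B, left 4 other G1/S regulators higher at 24 h (in place of 7) and 1 higher than at 12 h (in place of 3, and 2 to 4 without single libraries), and only the groups compared in the fit left 13 E2F target genes lower at 24 h than at 12 h (in place of 20). Directions of fold changes turned only where they were not called. Among ratios, 1 whose difference exceeded the replicate SD turned. Smaller ratio differences were not counted as turned, and some changed sign without a single library, such as E2F8/E2F7 at 12 h against Gln added. Without single libraries CDK6 lay between -0.03 and 0.05 for 12 h, -0.08 and 0.05 for 24 h, and -0.11 and 0.02 for the step between the times, and it stood at 0.02 for 24 h with FPKM rescaled to the same total. Between 12 h and 24 h, E2F2 ran without single libraries from -0.06 to 0.04. CDC6 ran from -0.02 to 0.01 and was at 0.01 when rescaled, and E2F3 from -0.02 to 0.03 and at -0.02 after median-ratio scaling. CCNE2/CCNE1 at 12 h was at 0.05 with a pseudocount of 1. The causes were not tested. With a replicate block, 7341 genes were called at 12 h, 7802 at 24 h and 2586 between the times, and 8, 9 and 6 members, the same numbers as without it. No clear pairing by replicate number was seen: the correlation of same-numbered deviations lay between -0.14 and 0.28. A library correlated best with its own number in 6 of 18 cases. Between 12 h and 24 h the correlation was 0.25 for replicate 1, -0.14 for replicate 2 and 0.28 for replicate 3. With 3 libraries per group this check says little about shared batches. Depth limits the low genes: the lowest library held 20 fragments of CDKN2B, 71 of CDKN2A, 96 of CCND2 and, as the lowest among the members, 116 of CCNE2.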
